A study of Mus musculus with 10 samples.

Results

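Genes of the endoplasmic reticulum (ER) stress response and of the amino acid response driven by ATF4 were examined in mouse bone-marrow-derived macrophages (BMDMΦs) on 10 Clariom S microarrays. The list held 43 genes known as regulators, targets or effectors of these responses, and 39 of them were matched by their annotated symbol to at least 1 of the 22206 probe sets. Pycr1, Aars, Pdia4 and Manf were not matched and are not analysed here. The macrophages came from the femoral and tibial marrow of male C57Bl/6J mice aged 8 to 12 weeks and were grown with medium of L929 cells as the source of M-CSF. Treatment lasted 48 h, and each of the 5 conditions has 2 arrays. The conditions were complete medium (not stimulated), medium conditioned by serum-starved cancer-associated fibroblasts (CAFs) with the Snai1 gene (WT CAF CM), medium of CAFs depleted of it (KO CAF CM), IL4 at 10 ng/mL, and IFNγ at 100 units/mL. Snai1 encodes Snail1, a transcription factor needed for CAF activation. The CAFs came from MMTV-PyMT mammary tumours, a model in which the mouse mammary tumour virus promoter drives the polyoma middle T antigen. How many CAF lines of each genotype made the medium is not given in the sources used here. The genotype belonged to the fibroblasts that made the medium, as the sample titles give it, whereas the sample descriptions attach it to the macrophages. The conditioned medium came from fibroblasts starved of serum for 24 h, and no array held starved medium without fibroblasts. Factors from the fibroblasts and the depletion of serum or amino acids from the medium therefore cannot be told apart in any comparison of CAF CM with complete medium, IL4 or IFNγ.

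The ER is where secreted and membrane proteins fold. When unfolded proteins gather there, the sensors PERK, IRE1 and ATF6 start the unfolded protein response: ATF6 is cut and enters the nucleus, IRE1 splices the Xbp1 mRNA, and both raise chaperones and degradation factors. PERK phosphorylates the translation factor eIF2α, as the kinase GCN2 does when an amino acid is short, and translation of the Atf4 mRNA then rises although most other translation falls. ATF4 raises genes of amino acid synthesis, amino acid uptake and tRNA charging. The arrays measured RNA only, so neither the translation of Atf4, nor the splicing of Xbp1, nor the cleavage of ATF6 was measured. In macrophages several of these genes are also known to respond to inflammatory activation.

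ATF4 and the ER stress factors act through short DNA elements, and windows from RefSeq promoters (GRCm38.p6) of members are shown here to give the letters of these elements where they were found. Promoters of 250 bases before to 50 after the gene start were found for 36 of the 43 listed genes. The core of the C/EBP-ATF response element, TGATGNAA on either strand, was present in promoters of 10 of these 36 genes: Aars, Asns, Atf3, Chac1, Gars, Herpud1, Nupr1, Pycr1, Trib3 and Vldlr. It was held by 24.4% of the members' 41 promoter windows and by 3.97% of all 32851 windows. In the following windows capitals mark this core.
Asns, chr6:7693210-7693262, minus strand: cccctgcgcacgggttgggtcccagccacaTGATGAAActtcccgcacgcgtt
Nupr1, chr7:126625543-126625610, minus strand: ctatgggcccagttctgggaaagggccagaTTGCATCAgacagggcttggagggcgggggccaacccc
Herpud1, chr8:94386287-94386354, plus strand: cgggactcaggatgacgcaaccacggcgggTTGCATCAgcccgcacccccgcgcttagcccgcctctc
Chac1, chr2:119351019-119351086, plus strand: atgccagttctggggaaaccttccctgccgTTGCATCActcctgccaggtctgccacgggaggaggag
Atf3, chr1:191183406-191183473, minus strand: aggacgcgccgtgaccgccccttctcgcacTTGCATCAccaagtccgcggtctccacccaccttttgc
The ER stress response element, CCAAT and CCACG separated by 9 bases on either strand, was present in 7 of the 36 genes: Calr, Canx, Creld2, Dnajc3, Hsp90b1, Hspa5 and Pdia6. It was held by 17.1% of the members' windows and by 0.12% of all windows. Capitals mark this element in the following windows.
Hspa5, chr2:34771995-34772073, plus strand: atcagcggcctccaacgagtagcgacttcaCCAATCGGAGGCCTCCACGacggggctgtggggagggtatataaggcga
Pdia6, chr12:17266461-17266539, plus strand: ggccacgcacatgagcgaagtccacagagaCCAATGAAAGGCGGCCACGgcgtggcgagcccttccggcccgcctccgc
Creld2, chr15:88819490-88819568, plus strand: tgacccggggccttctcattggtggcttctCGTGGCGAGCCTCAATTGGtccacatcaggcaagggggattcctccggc
Hsp90b1, chr10:86705503-86705581, minus strand: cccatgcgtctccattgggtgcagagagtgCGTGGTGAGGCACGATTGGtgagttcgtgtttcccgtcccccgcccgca
Canx, chr11:50325770-50325848, minus strand: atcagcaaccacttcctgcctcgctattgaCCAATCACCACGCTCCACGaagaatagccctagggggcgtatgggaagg
The unfolded protein response element TGACGTGG was in no member window and in 0.68% of all windows. None of the 3 elements was found for 19 of the 36 genes, Atf4, Mthfd2, Psat1 and Slc6a9 among them. Herpud1, which acts in ER degradation, held the C/EBP-ATF core and not the ER stress response element with 9 bases between its parts. Forms of that element with another spacing were not searched, so their absence is not shown for any gene. The letters are a description of these windows, the list was drawn from genes already known for these responses, and binding was not measured.

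The 10 arrays had median log2 signals of 5.57 to 5.71, and the replicates of a condition correlated at 0.9936 to 0.9952 across probe sets. WT CAF CM held 39 probe sets more than 4-fold apart between its replicates, against 6 to 14 in the other conditions. The median signal of 7 macrophage markers was 15.55 to 17.01 on every array, and that of 8 fibroblast markers was 4.19 to 4.74, below the median of all probe sets. None of the 8 fibroblast markers differed by limma (adjusted p under 0.05) between not stimulated BMDMΦs and any condition, or between both CAF media. Neutrophil and lymphocyte markers had median signals of 4.28 to 5.23 and 3.62 to 4.12. Of the 5 dendritic cell markers, Clec9a and Xcr1 passed as higher with IFNγ than in not stimulated BMDMΦs. Clec9a read 13.45 and 12.99 with IFNγ against 4.41 and 4.20, and Xcr1 6.21 and 6.47 against 3.73 and 3.58. The not stimulated signals of both lay below the median of all probe sets, where a difference can understate a change, so no fold is given. Flt3, Zbtb46 and Ccr7 did not pass in that comparison. Macrophage markers also moved with the conditions. Of the 7, Adgre1 (0.96), Itgam (0.98) and Cd14 (0.74) were higher after WT CAF CM than without stimulation on the log2 scale. After KO CAF CM Adgre1 (1.05) and Cd14 (0.78) were higher and Mertk (-2.51) was lower. IL4 went with lower Cd14 (-3.58), Fcgr1 (-1.7) and Mertk (-1.04), and IFNγ with lower Cd14 (-4.28) and higher Fcgr1 (1.48). Between WT and KO CAF CM Mertk differed by 1.73 ± 0.23, WT being higher. Camp, a neutrophil marker, was higher with both CAF media (0.91 ± 0.22 with WT and 1.02 ± 0.22 with KO), Ltf was lower with KO CAF CM (-0.93 ± 0.19), and no neutrophil marker read above 5.82 on any array. Cd4, in the lymphocyte list, was lower in all 4 conditions, at -2.21 to -1.56. Whether these marker differences had a part in the members' differences was not tested.

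Nearly all members that passed the test against not stimulated BMDMΦs were higher (limma, adjusted p under 0.05 over all probe sets). With WT CAF CM 13 of 39 members (33.3%) were higher and 1 (2.56%) was lower than in not stimulated BMDMΦs, against 4.08% and 4.47% of all probe sets. With KO CAF CM 19 were higher and 0 lower, against 6.83% and 8%. IFNγ raised 17 and lowered 0, against 5.38% and 6.68%. With IL4 5 members were higher and 0 lower, against 1.66% and 2.38%. The median log2 difference of the 39 members was 0.70 with WT CAF CM, 0.61 with KO CAF CM, 0.67 with IFNγ and 0.18 with IL4, while that of all probe sets lay between -0.02 and 0. These 4 comparisons share the same pair of not stimulated arrays, so their counts are not independent of each other. The members were also chosen with earlier results of these data known, which limits what the counts can show against all probe sets. Members past an unadjusted p of 0.05 in either direction numbered 25 (64.1%), 23 (59%), 22 (56.4%) and 17 (43.6%) in the order WT CAF CM, KO CAF CM, IFNγ and IL4, against 19.5%, 25.2%, 22.3% and 15.4% of all probe sets. The WT CAF CM count of 14 fell to 9 without not stimulated replicate 1 and to 8 without not stimulated replicate 2 or without WT CAF CM replicate 2. The KO CAF CM count of 19 fell to 12 without KO CAF CM replicate 1. The IL4 count of 5 was 2 without not stimulated replicate 1 or either IL4 array, and 3 without not stimulated replicate 2 or either array of WT CAF CM or IFNγ. It was 10 with trend and robust moderation and 3 with median centring.

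**Figure D1:**
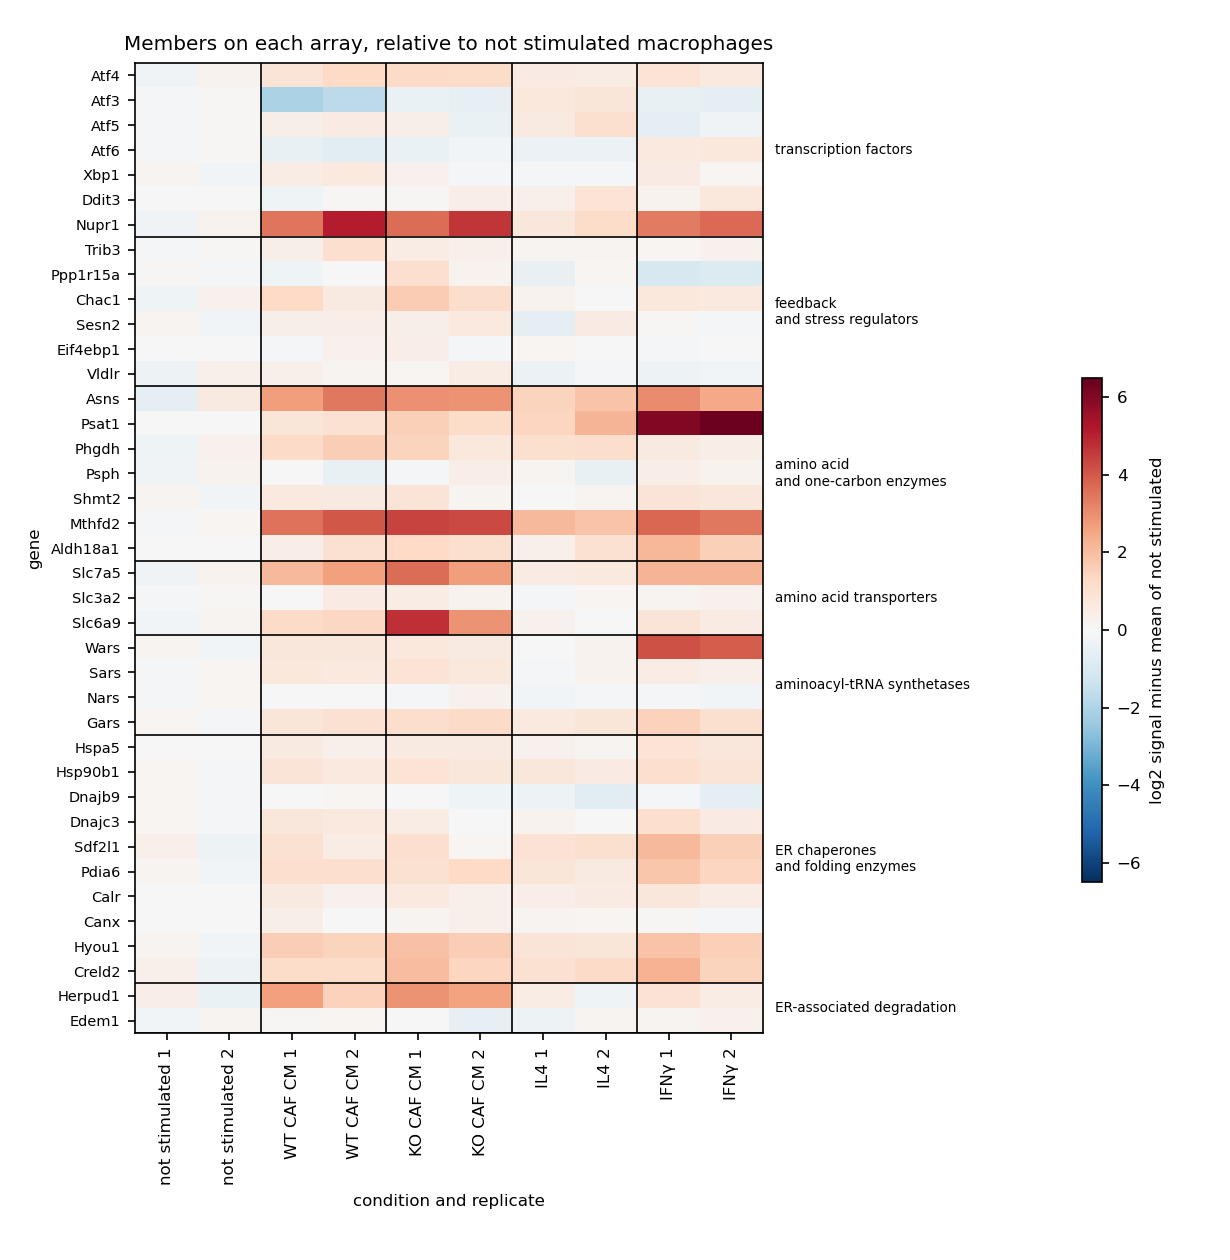
Log2 signal of each of the 39 members on each of the 10 arrays (columns, condition and replicate) minus the mean of the 2 not stimulated arrays, with members grouped by role. Nupr1, Asns and Mthfd2 stand above 0 in both CAF media and with IFNγ, Psat1 and Wars reach their highest values with IFNγ, and Slc6a9 stands highest with KO CAF CM.

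Among the 7 transcription factors, Nupr1 and Atf4 were higher than in not stimulated BMDMΦs in both CAF media and with IFNγ. In this and the following paragraphs values are deposited log2 signals, with replicate 1 before replicate 2, and differences are log2 differences of group means ± SE with limma's adjusted p and 2 arrays in each group. A call is said to end where leaving out 1 array took the adjusted p to 0.05 or above, and the difference without that array is given. Atf4 read 12.87 and 13.35 in not stimulated BMDMΦs, 13.96 and 14.41 after WT CAF CM, 14.37 and 14.28 after KO CAF CM, 13.64 and 13.59 with IL4 and 14.02 and 13.72 with IFNγ. Both not stimulated arrays lay below all 8 others. The difference from not stimulated was 1.08 ± 0.23, adjusted p = 0.011 in WT CAF CM, and 1.21 ± 0.23, adjusted p = 0.0032 in KO CAF CM. It was 0.76 ± 0.23, adjusted p = 0.049 with IFNγ and 0.51 ± 0.23, adjusted p = 0.31 with IL4, which did not pass. The WT CAF CM call of Atf4 ended at 0.83 without replicate 1 of the not stimulated arrays and 0.85 without replicate 2 of WT CAF CM, and its IFNγ call at 0.52 to 0.91 without not stimulated replicate 1, either KO CAF CM array, either IL4 array or either IFNγ array.

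Nupr1 encodes a small chromatin-bound regulator induced by many stresses. Its signal was 7.94 and 8.36 in not stimulated BMDMΦs, 11.62 and 13.26 after WT CAF CM, 11.80 and 12.82 after KO CAF CM, 8.90 and 9.35 with IL4 and 11.53 and 11.83 with IFNγ. The arrays of both CAF media and IFNγ lay above those of IL4 and not stimulated cells without overlap. Nupr1 was 19.6-fold higher with WT CAF CM (4.29 ± 0.46, adjusted p = 0.00011), 17.9-fold with KO CAF CM (4.16 ± 0.46, adjusted p = 8.3e-05) and 11.6-fold with IFNγ (3.53 ± 0.46, adjusted p = 3e-04). The IL4 difference was 0.97 ± 0.46, adjusted p = 0.34. Its replicates were more than 2-fold apart in both CAF media.

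Ddit3 encodes CHOP, the factor linked to cell death under prolonged ER stress. Its higher probe set read 10.55 and 10.61 in not stimulated BMDMΦs, 10.32 and 10.67 after WT CAF CM, 10.66 and 11.03 after KO CAF CM, 10.90 and 11.45 with IL4 and 10.79 and 11.29 with IFNγ. The KO CAF CM range overlapped those of WT CAF CM and of both cytokines, and Ddit3 passed in no comparison. Its differences from not stimulated were -0.08 ± 0.25 with WT CAF CM, 0.27 ± 0.25 with KO CAF CM, 0.6 ± 0.25 with IL4 and 0.46 ± 0.25 with IFNγ (adjusted p = 0.92, 0.6, 0.28 and 0.33). The second probe set of Ddit3 passed in none either. Xbp1, the target of IRE1, had signals of 14.71 and 14.31 in not stimulated BMDMΦs, 14.99 and 15.13 after WT CAF CM, 14.79 and 14.45 after KO CAF CM, 14.40 and 14.43 with IL4 and 15.04 and 14.66 with IFNγ, and it too passed in no comparison.

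Atf6 encodes the sensor that is cut on its way to the nucleus. Its signals were 13.31 and 13.48 in not stimulated BMDMΦs, 12.90 and 12.64 after WT CAF CM, 12.96 and 13.21 after KO CAF CM, 13.00 and 12.99 with IL4 and 14.01 and 14.06 with IFNγ. Both IFNγ arrays lay above all others. Atf6 was higher with IFNγ than in not stimulated BMDMΦs by 0.64 ± 0.19, adjusted p = 0.044, a call that ended at 0.55 to 0.72 without either not stimulated array, either WT CAF CM array, either IL4 array or either IFNγ array. Its WT CAF CM difference was -0.63 ± 0.19, adjusted p = 0.063. Atf5, a relative of ATF4 that is also regulated by translation, read 7.38 and 7.5 in not stimulated BMDMΦs, 7.82 and 7.98 after WT CAF CM, 7.83 and 7.03 after KO CAF CM, 8.01 and 8.49 with IL4 and 6.82 and 7.19 with IFNγ. Its 4 differences from not stimulated did not pass, and it was higher with IL4 than with IFNγ by 1.24 ± 0.27, adjusted p = 0.0089. That call ended at 1.01 without replicate 2 of IL4 and 1.06 without replicate 1 of IFNγ.

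Atf3 encodes a repressor and activator induced by ATF4 and by inflammatory signals, and it was the only member called lower than in not stimulated BMDMΦs. It read 14.45 and 14.59 in not stimulated BMDMΦs, 12.48 and 12.82 after WT CAF CM, 14.09 and 13.98 after KO CAF CM, 15.20 and 15.29 with IL4 and 14.04 and 13.93 with IFNγ. Both WT CAF CM arrays lay below the 8 others, and both IL4 arrays above them. Atf3 was 3.66-fold lower than in not stimulated cells after WT CAF CM (-1.87 ± 0.19, adjusted p = 5.9e-05). With KO CAF CM the difference was -0.48 ± 0.19, adjusted p = 0.12, with IFNγ -0.53 ± 0.19, adjusted p = 0.097 and with IL4 0.73 ± 0.19, adjusted p = 0.055, and none of these passed.

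Of the 6 feedback and stress regulators, 1 passed against not stimulated BMDMΦs, Chac1 with KO CAF CM. Trib3, a pseudokinase that restrains ATF4 and CHOP, read 6.93 and 7.07 in not stimulated BMDMΦs, 7.37 and 8.11 after WT CAF CM, 7.5 and 7.33 after KO CAF CM, 7.16 and 7.20 with IL4 and 7.12 and 7.30 with IFNγ. It passed in no comparison, and its WT CAF CM difference was 0.74 ± 0.23, adjusted p = 0.082. Chac1, an enzyme that breaks down glutathione, was higher with KO CAF CM by 1.39 ± 0.28, adjusted p = 0.0055, and this call ended at 1.09 without replicate 1 of the not stimulated arrays and 1.13 without replicate 1 of KO CAF CM. The WT CAF CM difference of Chac1 was 0.94 ± 0.28, adjusted p = 0.066. Ppp1r15a encodes GADD34, which leads a phosphatase back to eIF2α, and its IFNγ difference was -0.96 ± 0.29, adjusted p = 0.051. The mean signal of Ppp1r15a over all arrays was in the lowest 33.3% of probe sets. Sesn2, Eif4ebp1 and Vldlr passed in no comparison, with differences from not stimulated between -0.25 and 0.51. The promoters of Trib3, Chac1 and Vldlr held the C/EBP-ATF core, as did those of Asns and Nupr1.

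Of the 7 enzymes of amino acid and one-carbon metabolism, Asns and Mthfd2 were higher than in not stimulated BMDMΦs in all 4 conditions. Asns encodes asparagine synthetase, the classic target of the amino acid response. Its signals were 9.33 and 10.50 in not stimulated BMDMΦs, 12.62 and 13.34 after WT CAF CM, 12.87 and 12.83 after KO CAF CM, 11.37 and 11.77 with IL4 and 13.00 and 12.37 with IFNγ. Both IL4 arrays lay between the not stimulated arrays and the arrays of the other 3 conditions. The not stimulated replicates of Asns, on which all 4 differences rest, were more than 2-fold apart. Asns was 8.37-fold higher with WT CAF CM (3.06 ± 0.37, adjusted p = 0.00024), 7.65-fold with KO CAF CM (2.94 ± 0.37, adjusted p = 0.00021), 3.15-fold with IL4 (1.65 ± 0.37, adjusted p = 0.028) and 6.82-fold with IFNγ (2.77 ± 0.37, adjusted p = 0.00034). The IL4 call of Asns ended at 1.07 without replicate 1 of the not stimulated arrays, 1.86 without replicate 1 of IL4 and 1.45 without replicate 2 of IL4.

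Mthfd2 encodes a mitochondrial enzyme of the folate cycle. It read 8.01 and 8.23 in not stimulated BMDMΦs, 11.63 and 12.16 after WT CAF CM, 12.53 and 12.43 after KO CAF CM, 10.23 and 9.98 with IL4 and 11.86 and 11.54 with IFNγ. The 3 levels, not stimulated, IL4, and the other 3 conditions, did not overlap. Mthfd2 was 13.7-fold higher with WT CAF CM (3.77 ± 0.22, adjusted p = 1e-06), 20.5-fold with KO CAF CM (4.36 ± 0.22, adjusted p = 2.4e-07), 3.96-fold with IL4 (1.98 ± 0.22, adjusted p = 0.00037) and 12-fold with IFNγ (3.58 ± 0.22, adjusted p = 9.7e-07). These calls stayed past the threshold with each of the 10 arrays left out.

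Psat1 encodes the middle enzyme of serine synthesis, and its signal separated IFNγ from all other conditions. It read 6.92 and 6.93 in not stimulated BMDMΦs, 7.73 and 7.89 after WT CAF CM, 8.45 and 8.13 after KO CAF CM, 8.31 and 9.11 with IL4 and 12.93 and 13.31 with IFNγ. Both IFNγ arrays lay above all 8 others. Psat1 was 73.3-fold higher with IFNγ (6.2 ± 0.26, adjusted p = 3.5e-08), 3.45-fold with IL4 (1.78 ± 0.26, adjusted p = 0.0022) and 2.58-fold with KO CAF CM (1.36 ± 0.26, adjusted p = 0.0038). With WT CAF CM it was at 0.89 ± 0.26, adjusted p = 0.06.

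The enzymes before and after Psat1 in serine synthesis did not pass with IFNγ. Phgdh, the first enzyme, read 4.35 and 4.87 in not stimulated BMDMΦs, 5.86 and 6.19 after WT CAF CM, 6.06 and 5.29 after KO CAF CM, 5.67 and 5.75 with IL4 and 5.19 and 5.01 with IFNγ, so that its not stimulated signals lay below the median of the arrays. Its IFNγ difference was 0.49 ± 0.27, adjusted p = 0.33, and that of Psph, the last enzyme, was 0.34 ± 0.28, adjusted p = 0.58. Phgdh was higher with WT CAF CM (1.42 ± 0.27, adjusted p = 0.0059), KO CAF CM (1.07 ± 0.27, adjusted p = 0.019) and IL4 (1.1 ± 0.27, adjusted p = 0.043). Those calls ended at 1.15 without replicate 1 of the not stimulated arrays and 1.25 without replicate 2 of WT CAF CM for WT CAF CM and at 0.81 without replicate 1 of the not stimulated arrays and 0.68 without replicate 1 of KO CAF CM for KO CAF CM. The IL4 call ended at 0.84 to 1.36 without either not stimulated array, either WT CAF CM array, either IL4 array or either IFNγ array. Aldh18a1, which starts proline synthesis, was higher with IFNγ (1.88 ± 0.28, adjusted p = 8e-04) and with KO CAF CM (1.17 ± 0.28, adjusted p = 0.015), the latter call ending at 1.17 without replicate 1 of the not stimulated arrays, 1.17 without replicate 2 of the not stimulated arrays and 1.04 without replicate 1 of KO CAF CM. Shmt2, which feeds serine into mitochondrial one-carbon metabolism, passed in no comparison and was at 0.77 ± 0.23, adjusted p = 0.052 with IFNγ.

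**Figure D2:**
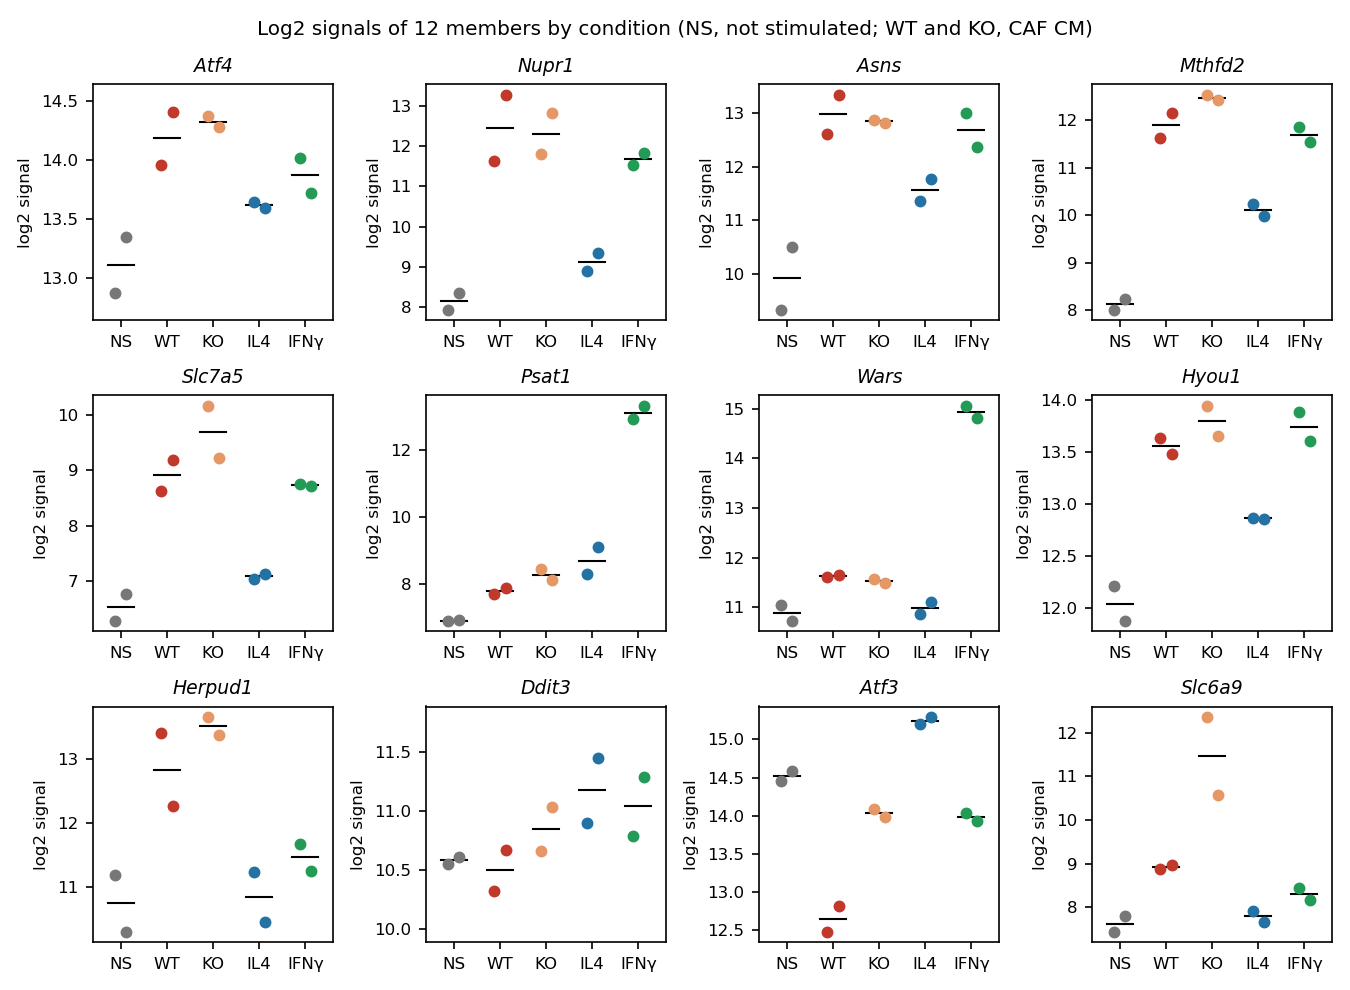
Log2 signal of 12 members on each array, with 1 point per array and a bar at the mean of each condition (NS, not stimulated; WT and KO, conditioned medium of WT and KO CAFs); the scale differs between panels. Psat1 and Wars are highest with IFNγ, Slc6a9 with KO CAF CM, and Atf3 is lowest with WT CAF CM.

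Slc7a5 encodes the light chain of the LAT1 carrier of large neutral amino acids, and it rose in both CAF media and with IFNγ. It read 6.28 and 6.76 in not stimulated BMDMΦs, 8.63 and 9.19 after WT CAF CM, 10.16 and 9.23 after KO CAF CM, 7.03 and 7.13 with IL4 and 8.75 and 8.71 with IFNγ. The arrays of those 3 conditions lay above the IL4 and not stimulated arrays. Slc7a5 was higher by 2.39 ± 0.3, adjusted p = 0.00033 with WT CAF CM, by 3.18 ± 0.3, adjusted p = 2.5e-05 with KO CAF CM and by 2.21 ± 0.3, adjusted p = 4e-04 with IFNγ. The IL4 difference was 0.56 ± 0.3, adjusted p = 0.42. Slc3a2, the heavy chain that LAT1 shares with other carriers, read 16.33 to 17.00 over all arrays and passed in no comparison.

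Slc6a9 encodes the glycine carrier GlyT1. Its signals were 7.44 and 7.79 in not stimulated BMDMΦs, 8.88 and 8.96 after WT CAF CM, 12.35 and 10.56 after KO CAF CM, 7.91 and 7.67 with IL4 and 8.45 and 8.17 with IFNγ. Both KO CAF CM arrays lay above all others, and both WT CAF CM arrays came next. With KO CAF CM Slc6a9 was 14.3-fold higher than in not stimulated BMDMΦs (3.84 ± 0.42, adjusted p = 8.2e-05), and with WT CAF CM it was at 1.3 ± 0.42, adjusted p = 0.091. The KO CAF CM replicates were more than 2-fold apart.

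Of the 4 aminoacyl-tRNA synthetases, the enzymes that charge tRNAs with amino acids, Wars stood apart with IFNγ. Wars encodes the tryptophan enzyme, known in human cells to be induced by IFNγ. It read 11.05 and 10.73 in not stimulated BMDMΦs, 11.62 and 11.65 after WT CAF CM, 11.56 and 11.48 after KO CAF CM, 10.87 and 11.11 with IL4 and 15.05 and 14.81 with IFNγ. Both IFNγ arrays lay above all 8 others, and the IFNγ difference was 16.4-fold (4.04 ± 0.19, adjusted p = 1.1e-07). With WT and KO CAF CM Wars was at 0.74 ± 0.19, adjusted p = 0.033 and 0.63 ± 0.19, adjusted p = 0.049. The WT CAF CM call ended at 0.58 to 0.9 without either not stimulated array or either WT CAF CM array, and the KO CAF CM call at 0.47 to 0.79 without any 1 of the 10 arrays. Gars, the glycine enzyme, was higher with WT CAF CM (0.89 ± 0.21, adjusted p = 0.019), KO CAF CM (1.17 ± 0.21, adjusted p = 0.0022) and IFNγ (1.29 ± 0.21, adjusted p = 0.0012), and its WT CAF CM call ended at 1.01 without replicate 1 of the not stimulated arrays, 0.77 without replicate 2 of the not stimulated arrays and 0.79 without replicate 2 of WT CAF CM. Sars, the serine enzyme, was higher with KO CAF CM (0.79 ± 0.2, adjusted p = 0.02), a call that ended at 0.65 without replicate 1 of the not stimulated arrays and 0.68 without replicate 1 of KO CAF CM, and Nars passed in no comparison.

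Of the 10 ER chaperones and folding enzymes, 7 were higher with IFNγ, 4 with WT CAF CM, 5 with KO CAF CM and 1 with IL4, and none was lower. Of all probe sets 5.38%, 4.08%, 6.83% and 1.66% were higher in the same order. Hyou1, a large chaperone of the ER, was the one that passed in all 4 conditions. It read 12.21 and 11.88 in not stimulated BMDMΦs, 13.63 and 13.48 after WT CAF CM, 13.94 and 13.65 after KO CAF CM, 12.87 and 12.86 with IL4 and 13.88 and 13.61 with IFNγ. The IL4 arrays lay between the not stimulated arrays and those of the other 3 conditions. Hyou1 was higher by 1.51 ± 0.2, adjusted p = 5e-04 with WT CAF CM, by 1.75 ± 0.2, adjusted p = 0.00011 with KO CAF CM, by 0.82 ± 0.2, adjusted p = 0.044 with IL4 and by 1.7 ± 0.2, adjusted p = 0.00014 with IFNγ. Its IL4 call ended at 0.65 to 0.98 without either not stimulated array, either WT CAF CM array, either IL4 array or either IFNγ array.

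Hspa5 encodes BiP, the main chaperone of the ER lumen and the usual readout of the unfolded protein response. It read 16.43 and 16.43 in not stimulated BMDMΦs, 16.99 and 16.74 after WT CAF CM, 17.03 and 17.01 after KO CAF CM, 16.71 and 16.60 with IL4 and 17.31 and 17.17 with IFNγ. Both not stimulated arrays lay below the other 8. The differences from not stimulated were 0.43 ± 0.18, adjusted p = 0.19 with WT CAF CM, 0.59 ± 0.18, adjusted p = 0.045 with KO CAF CM, 0.22 ± 0.18, adjusted p = 0.64 with IL4 and 0.81 ± 0.18, adjusted p = 0.0099 with IFNγ. The KO CAF CM and IFNγ differences passed, and the KO CAF CM call ended at 0.58 to 0.6 without any 1 of the 10 arrays. The IFNγ call ended at 0.81 without replicate 1 of the not stimulated arrays, 0.81 without replicate 2 of the not stimulated arrays and 0.74 without replicate 1 of IFNγ.

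Pdia6, a disulfide isomerase, was higher by 1.07 ± 0.21 with WT CAF CM, 1.17 ± 0.21 with KO CAF CM and 1.59 ± 0.21 with IFNγ. Creld2, an ER stress-induced folding factor, was higher by 1.19 ± 0.31, 1.73 ± 0.31 and 1.85 ± 0.31 in the same order, and Hsp90b1, the ER member of the HSP90 family, by 0.74 ± 0.2, 0.82 ± 0.2 and 0.97 ± 0.2. With WT CAF CM the call of Pdia6 ended at 0.91 without replicate 2 of the not stimulated arrays and 1.08 without replicate 2 of WT CAF CM, and that of Creld2 at 0.85 without replicate 2 of the not stimulated arrays, 1.21 without replicate 1 of WT CAF CM and 1.18 without replicate 2 of WT CAF CM. The WT CAF CM call of Hsp90b1 ended at 0.59 to 0.88 without either not stimulated array, either WT CAF CM array or either IFNγ array. Its KO CAF CM call ended at 0.68 without replicate 2 of the not stimulated arrays and 0.76 without replicate 1 of KO CAF CM and its IFNγ call at 0.83 without replicate 2 of the not stimulated arrays and 0.85 without replicate 1 of IFNγ. Sdf2l1, which works with BiP and its partners, and Dnajc3, a co-chaperone of BiP, passed with IFNγ, by 1.84 ± 0.33 and 0.82 ± 0.24, and the call of Dnajc3 ended at 0.54 to 0.96 without either not stimulated array, either WT CAF CM array, either IL4 array or IFNγ replicate 1. Neither passed between IL4 and IFNγ, at -0.84 ± 0.33 and -0.68 ± 0.24. The lectin chaperones Calr and Canx and the co-chaperone Dnajb9 passed in no comparison. Of the 7 genes whose promoters held the ER stress response element, Calr and Canx were those that passed in none.

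Herpud1, a membrane protein that helps to send misfolded proteins to degradation, rose in both CAF media. It read 11.19 and 10.30 in not stimulated BMDMΦs, 13.41 and 12.27 after WT CAF CM, 13.66 and 13.38 after KO CAF CM, 11.23 and 10.45 with IL4 and 11.68 and 11.25 with IFNγ. The arrays of both CAF media lay above all others, and the WT CAF CM replicates were more than 2-fold apart. Herpud1 was 4.27-fold higher with WT CAF CM (2.1 ± 0.4, adjusted p = 0.0059) and 6.84-fold with KO CAF CM (2.78 ± 0.4, adjusted p = 0.00055). With WT CAF CM the call ended at 1.65 without replicate 2 of the not stimulated arrays. The IFNγ and IL4 differences were 0.72 ± 0.4, adjusted p = 0.34 and 0.09 ± 0.4, adjusted p = 0.96. Edem1, a lectin of the same degradation route, passed in no comparison.

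WT CAF CM was compared with KO CAF CM, the media of fibroblasts with and without Snail1. As the number of CAF lines is not given, an effect of Snail1 cannot be told apart from differences between the CAF cultures. Of the 39 members 0 were higher and 2 were lower with WT CAF CM, against 0.694% and 0.666% of all probe sets. The 2 were Atf3, 2.61-fold lower (-1.38 ± 0.19, adjusted p = 0.0039), and Slc6a9, 5.8-fold lower (-2.54 ± 0.42, adjusted p = 0.013), and neither gene's WT and KO arrays overlapped. The study compared these media on the same arrays, so neither call is an independent finding. The Slc6a9 call ended at -2.49 without replicate 1 of WT CAF CM and -2.57 without replicate 2 of WT CAF CM. The size of its difference varied with the KO CAF CM arrays: it was -1.64 (adjusted p = 0.02) without KO CAF CM replicate 1 and -3.43 (adjusted p = 0.00019) without KO CAF CM replicate 2. In a fit of these 4 arrays alone both calls were lost (adjusted p = 0.052 for Atf3 and 0.12 for Slc6a9). At an unadjusted p under 0.05 there were 5 members (12.8%), against 10.5% of all probe sets, the other 3 being Ppp1r15a (-0.79 ± 0.29), Slc7a5 (-0.78 ± 0.3) and Mthfd2 (-0.58 ± 0.22). The median over the 39 members was -0.09, and that over all probe sets -0.01. Of the members that were higher in both media than in not stimulated BMDMΦs, Asns was at 0.13 ± 0.37 between the media, Nupr1 at 0.13 ± 0.46, Atf4 at -0.14 ± 0.23 and Herpud1 at -0.68 ± 0.4, and none of these passed.

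**Figure D3:**
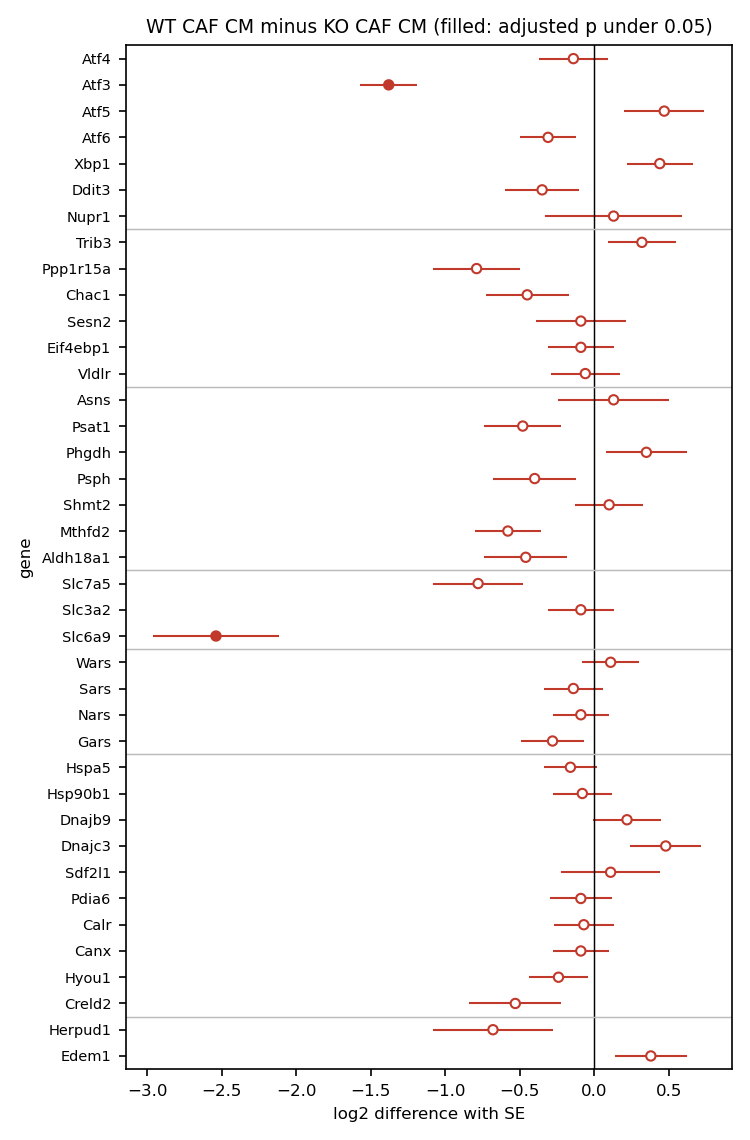
Log2 difference of each of the 39 members between WT and KO CAF CM with its SE from the limma fit (2 arrays per condition); filled points passed an adjusted p of 0.05 over all probe sets and grey lines part the roles. Only Atf3 and Slc6a9 are filled, at -1.38 and -2.54.

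IL4 and IFNγ, the cytokines used for alternative and classical activation, were compared directly. With IL4 2 members (5.13%) were higher and 9 (23.1%) lower than with IFNγ, against 5.83% and 6.2% of all probe sets. The share that was higher thus lay near that of all probe sets. The median difference was -0.49 against 0.02. The largest were Psat1 (-4.41 ± 0.26, adjusted p = 4.3e-07), Wars (-3.94 ± 0.19, adjusted p = 9.9e-08), Nupr1 (-2.56 ± 0.46, adjusted p = 0.0026), Slc7a5 (-1.65 ± 0.3, adjusted p = 0.0027) and Mthfd2 (-1.59 ± 0.22, adjusted p = 0.00041). Atf6, Aldh18a1, Pdia6 and Hyou1 were also lower with IL4, at -1.04 ± 0.19, -1.23 ± 0.28, -0.9 ± 0.21 and -0.88 ± 0.2. Atf3 and Atf5 were the 2 that were higher with IL4, Atf3 by 1.26 ± 0.19, adjusted p = 0.00063. The count of 11 fell to 7 without IFNγ replicate 1. The calls of Aldh18a1, Pdia6 and Hyou1 ended at -0.89 without replicate 1 of IL4 and -0.92 without replicate 1 of IFNγ for Aldh18a1, at -0.78 without replicate 2 of IL4 and -0.7 without replicate 1 of IFNγ for Pdia6, and at -0.88 without replicate 1 of IL4, -0.87 without replicate 2 of IL4 and -0.75 without replicate 1 of IFNγ for Hyou1.

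**Figure D4:**
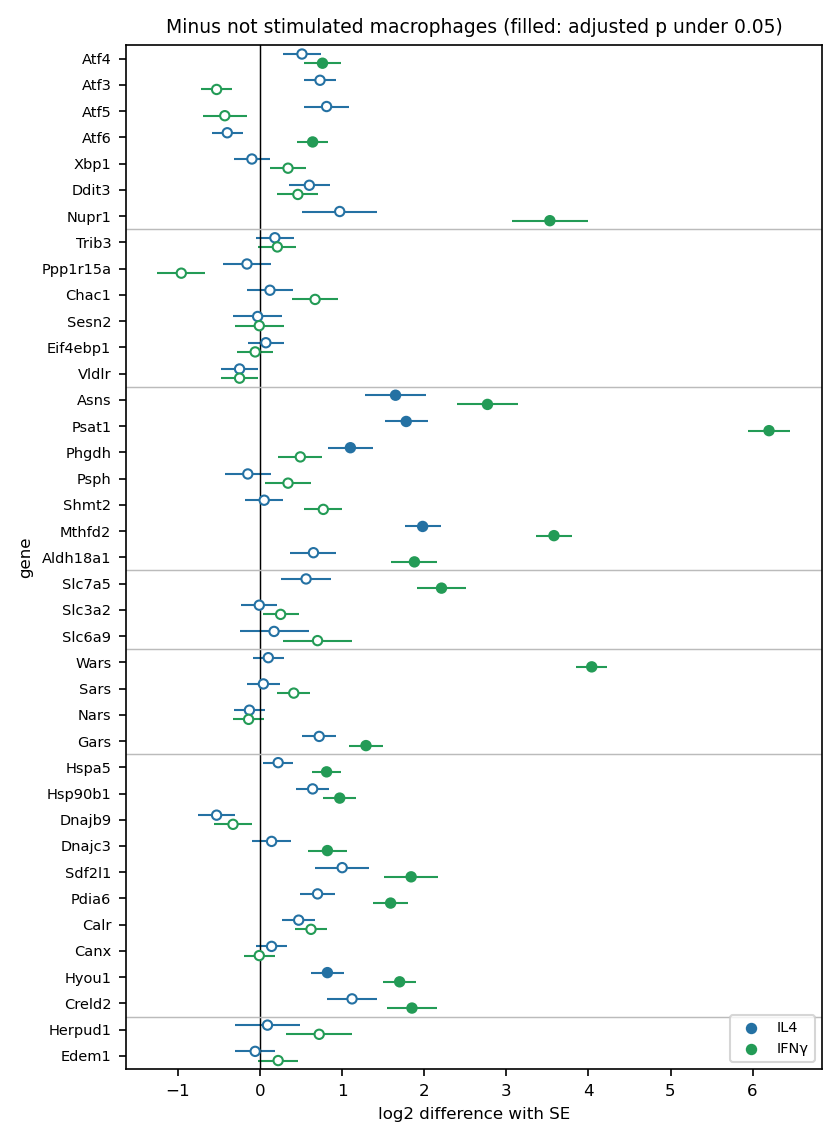
Log2 difference of each of the 39 members from not stimulated BMDMΦs with IL4 (blue) and IFNγ (green), with its SE from the limma fit (2 arrays per condition); filled points passed an adjusted p of 0.05 over all probe sets. IFNγ has 17 filled points, led by Psat1 at 6.20 and Wars at 4.04, and IL4 has 5.

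Both CAF media, taken as the mean of their 4 arrays, were then set against each cytokine, a comparison added after the values had been seen. Factors from the fibroblasts and depletion of the medium cannot be told apart here either. Against IFNγ 4 members (10.3%) were higher and 6 (15.4%) lower, against 8% and 7.19% of all probe sets. Here too the share that was higher lay near that of all probe sets. Psat1 (-5.07 ± 0.22, adjusted p = 2.5e-08), Wars (-3.35 ± 0.17, adjusted p = 6.4e-08) and Atf6 (-1.11 ± 0.16, adjusted p = 0.00043) were lower with CAF CM. Slc6a9 (1.88 ± 0.37, adjusted p = 0.0037), Herpud1 (1.72 ± 0.34, adjusted p = 0.0043) and Ppp1r15a (1.22 ± 0.25, adjusted p = 0.0047) were higher. The count of 10 fell to 5 without IFNγ replicate 1 and to 6 without IFNγ replicate 2. The calls of these 3 ended at 1.74 without replicate 2 of IFNγ for Slc6a9, 1.5 without replicate 2 of IFNγ for Herpud1 and 1.16 without replicate 1 of IFNγ for Ppp1r15a. Slc6a9 differed between the media that were averaged, its group means being 8.92 (WT) and 11.46 (KO), against 8.31 with IFNγ and 7.79 with IL4. Ppp1r15a had a mean signal in the lowest 33.3% of probe sets, which limits what its difference can show. The differences of Asns (0.23 ± 0.32), Nupr1 (0.69 ± 0.4), Mthfd2 (0.49 ± 0.19) and Slc7a5 (0.57 ± 0.26) did not pass. Against IL4 11 members (28.2%) were higher and 1 (2.56%), Atf3, was lower, against 8.24% and 7.45% of all probe sets. The largest were Nupr1 (3.25 ± 0.4, adjusted p = 0.00013), Slc6a9 (2.4 ± 0.37, adjusted p = 0.00067), Herpud1 (2.34 ± 0.34, adjusted p = 0.00049), Slc7a5 (2.22 ± 0.26, adjusted p = 8.6e-05) and Mthfd2 (2.08 ± 0.19, adjusted p = 1.3e-05), and Atf3 was at -1.9 ± 0.16, adjusted p = 6.3e-06. Atf3, too, differed between the media, with group means of 12.65 with WT and 14.04 with KO CAF CM against 15.24 with IL4. Beside these, 1 of the 8 fibroblast markers, Pdgfrb, was higher with CAF CM than with IFNγ or IL4, by 1.1 ± 0.32 and 1.15 ± 0.32, while the other 7 did not pass. Against IFNγ 6 of the 7 macrophage markers passed, of which Cd14 (5.04), Adgre1 (1.59), Itgam (1.17) and Lyz2 (0.6) were higher and Fcgr1 (-1.16) and Mertk (-0.97) lower with CAF CM, and Clec9a and Xcr1 were lower. Against IL4 5 of the 7 were higher, Cd14 (4.33), Fcgr1 (2.02), Adgre1 (1.2), Itgam (0.67) and Lyz2 (0.51), as was Camp (0.75), and Ltf (-0.59) was lower. The part of these markers in the members' differences was not tested.

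A further list of 80 genes of the same pathways outside the members, 75 of them matched, was counted in the same fit. It too was chosen with earlier results of these data known, so it is no independent check of the members. With WT CAF CM 21 (28%) were higher and 1 (1.33%) lower, against 4.08% and 4.47% of all probe sets. After KO CAF CM 32 (42.7%) were higher and 5 (6.67%) lower, against 6.83% and 8%. IL4 raised 6 (8%) and lowered 1 (1.33%), against 1.66% and 2.38%, and IFNγ raised 18 (24%) and lowered 6 (8%), against 5.38% and 6.68%. The shares that were lower with KO CAF CM and IFNγ lay near those of all probe sets. Between WT and KO CAF CM 0 passed by limma in either direction. At an unadjusted p under 0.05 there were 16 of the 75 matched genes, a larger share than the 10.5% of all probe sets. Slc7a11 encodes the carrier that brings in cystine in exchange for glutamate, and its signals were 9.01 and 8.80 in not stimulated BMDMΦs, 14.77 and 15.08 after WT CAF CM, 16.09 and 15.26 after KO CAF CM, 8.81 and 8.26 with IL4 and 6.97 and 6.08 with IFNγ. It was higher in both CAF media (6.02 ± 0.33, adjusted p = 7.3e-07 with WT and 6.77 ± 0.33, adjusted p = 2e-07 with KO) and lower with IFNγ (-2.38 ± 0.33, adjusted p = 0.00051). Slc7a1, a carrier of cationic amino acids, was higher in all 4 conditions, by 2.07 ± 0.25 with WT CAF CM, 2.55 ± 0.25 with KO CAF CM, 1.61 ± 0.25 with IL4 and 2.29 ± 0.25 with IFNγ. Jdp2, which encodes a repressor of the AP-1 family, was higher by 1.86 ± 0.18, 2.32 ± 0.18 and 3.87 ± 0.18 with WT CAF CM, KO CAF CM and IFNγ. Bcl2l11, which encodes the death-promoting protein BIM, was lower, at -2.05 ± 0.19, -2.5 ± 0.19 and -2.32 ± 0.19 in the same order. With IL4 the largest differences were Nfil3 (4.4 ± 0.31), a transcription factor that IL4 is known to induce, Slc7a1, the glutamine carrier Slc38a2 (-0.97 ± 0.18) and the cysteine tRNA synthetase Cars (0.95 ± 0.21). Of the 14 other aminoacyl-tRNA synthetases 8 were higher with WT CAF CM, 13 with KO CAF CM, 4 with IL4 and 8 with IFNγ, and 1, Qars, was lower with KO CAF CM.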

How the data were processed

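RNA of 10 BMDMΦ samples was hybridised to Clariom S mouse arrays, prepared with the GeneChip WT PLUS kit. The authors deposited log2 signals per probe set, processed with RMA (background correction, quantile normalization and probe summary) as named in the submitters' processing notes, with limma named beside it and TAC software named in the methods. The deposited values have 2 decimals, and RMA pulls low and very high signals together, which can lower fold changes. Groups were taken from the sample titles.

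Probe sets were named through the platform annotation: 19572 of 22206 carry 1 symbol. Where a gene had several probe sets, that of the highest mean signal was used. limma 3.58.1 in R 4.3.3 fitted a mean per condition to all 10 arrays (5 residual degrees of freedom), with Benjamini-Hochberg adjustment over all 22206 probe sets and a threshold of 0.05. The script was tested on simulated data. Arrays have no read depth, and their number, 2 per condition, limits the precision. The labels do not state whether replicate arrays stem from different mice or cultures, so p-values measure the spread between these arrays, which may be technical.

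Titles carry a replicate number shared across conditions. The labels do not say what these numbers mark, so the main fit did not treat them as pairs. Replicate differences correlated at -0.05 to 0.19 over the 10 pairs of conditions, with 3 of 10 over 0.1. Such correlations over all probe sets do not settle whether the arrays are paired. Alternatives tried were a filter on dim probe sets, other moderation, weights, scaling and thresholds, Student's t-test, the replicate block and leaving out each array. Values per array are given for members called between both CAF media, for the 5 largest called differences of each other planned comparison, and for Atf4, Atf3, Atf5, Atf6, Ddit3, Xbp1, Trib3 and Hspa5. The members and lists were chosen with earlier results of these data known. Promoters were read with Python 3.11.15 from a RefSeq table (GRCm38.p6), and figures were drawn with matplotlib 3.10.9.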

Additional observations from a re-analysis of the deposited data

How the results depend on the processing

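Direction held in nearly every alternative for the 97 member differences followed, while many calls at 2 arrays per condition lay near the threshold. The exceptions in direction were both between WT and KO CAF CM and uncalled: Atf4 ranged from -0.37 to 0.08 and Trib3 from -0.05 to 0.7 over the arrays left out. With 1 array left out the number of members called ranged from 1 to 2 for WT against KO CAF CM, 8 to 15 for WT CAF CM, 12 to 19 for KO CAF CM, 2 to 5 for IL4 and 12 to 19 for IFNγ against not stimulated, 7 to 13 for IL4 against IFNγ, and 5 to 11 and 8 to 12 for both CAF media against IFNγ and IL4. The lone array left in a condition was assumed to vary like the other conditions. For WT against KO CAF CM the count was 0 when only these arrays were fitted, 1 by Student's t-test unadjusted and 0 after Benjamini-Hochberg. The paper names TAC for the arrays, so this t-test is not its array analysis. The adjusted t-test also gave 0 members in each of the other 5 planned comparisons, and it was not run for both added ones. With IL4 the count was 10 with trend and robust moderation and 3 with median centring. The fit with the replicate block, which pairs arrays by their number only, ended 4 member calls (Atf4 and Atf6 with IFNγ, Wars with KO CAF CM, Phgdh for CAF CM against IFNγ) and moved no count of members by over 1.5 times. Over all probe sets the block raised the count in every comparison, to 406 (main 302) between WT and KO CAF CM and to 1100 (main 898) for IL4 against not stimulated. Over all probe sets, 302 were called between WT and KO CAF CM, against 104 when only these arrays were fitted, 489 at 2-fold and an unadjusted p, 1554 by the unadjusted and 7 by the adjusted t-test. The unadjusted t-test gave 2970 for WT CAF CM and 2279 for IL4 against not stimulated, where limma gave 1900 and 898. The adjusted t-test gave 2 to 13 in the other planned comparisons. As so few of all probe sets passed it, its counts of 0 say little about the members. Requiring 2-fold beside an unadjusted or adjusted p gave 2141 and 2065 for KO CAF CM against not stimulated (main 3292), 1961 and 1932 for both CAF media against IFNγ (main 3373), and 1918 and 1890 against IL4 (main 3484). Signals near the bottom of the scale, as for Phgdh, Chac1 and Ppp1r15a, limit what folds can be measured.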
